A study of Drosophila melanogaster with 8 samples.

Results

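The genes described here are the 9 fly genes that make, load, clear and sense γ-aminobutyric acid (GABA), out of 16727 genes in the count table. They were taken by name and are *Gad1* (synthesis), *VGAT* and *Gat* (transport), *Rdl*, *Grd* and *Lcch3* (ionotropic receptor subunits) and *GABA-B-R1*, *GABA-B-R2* and *GABA-B-R3* (metabotropic receptors). The table listed 8 of them under these names and *Gat* under its older name CG1732. RNA was sequenced from whole heads of female *Drosophila* in 8 libraries of 15 heads each, 4 from C9-induced flies and 4 from uninduced controls. All flies carried the same genotype, (G4C2)36; elavGS, so the controls held the repeat transgene as well as the driver. The authors had backcrossed their stocks to w1118 or v-w1118 flies. elavGS is a drug-inducible driver that acts in neurons, and the transgene places 36 copies of the hexanucleotide repeat of *C9orf72* under its control. Induced flies ate food with 200 µM RU486 (mifepristone) for 5 d, uninduced flies ate food with the ethanol vehicle for the same time, and all were 7 d old. RU486-fed flies lacking the transgene were not analysed here, so an effect of the drug and an effect of the repeat cannot be told apart.

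GABA is the main inhibitory transmitter of the fly brain. Glutamate decarboxylase makes it from glutamate, a vesicular transporter loads it into synaptic vesicles, and a plasma membrane transporter, which in flies sits mostly on glia, removes it from the extracellular space. Ionotropic receptors are pentamers that open an ion channel when GABA binds, and metabotropic GABA-B receptors act more slowly through G proteins.

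Library totals ran from 13247282 to 14962813 counts, and values below are counts per 1000000 counts of the library after TMM scaling (CPM). TMM is a scaling that assumes most genes do not change. Of 9905 genes with enough counts to test, 36.5% passed the test (edgeR, quasi-likelihood, Benjamini-Hochberg adjusted p below 0.05), 17.7% higher and 18.8% lower in induced heads. All 9 GABA genes passed the filter on low counts, and 3 of the 9 passed the test, 1 higher and 2 lower, a share near that of all genes. None of the 12 neuronal, 9 glial or 9 photoreceptor markers checked was at 0 in every library. Because whole heads were sequenced, fewer cells of a type and less RNA per cell cannot be told apart.

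The synthesis gene was lower in induced heads, and *Grd* fell most among the receptor genes. *GABA-B-R3* was the only receptor gene that edgeR called higher under TMM scaling. DESeq2 also called *Rdl* higher, and several calls depended on the scaling of the libraries, as given below. *Gad1* fell by 13.1% and *Grd* by 31.3%, while *GABA-B-R3* rose by 25.9%. The estimated log2 fold changes of *VGAT*, *Gat*, *Rdl*, *Lcch3*, *GABA-B-R1* and *GABA-B-R2* lay between -0.05 and 0.11, and none of these 6 passed the test. The median log2 fold change of the 9 genes was 0.03, against 0.00 for all genes tested. The groups of libraries did not overlap for the same 3 genes, where the groups did not overlap for 36% of all tested genes (18.1% higher and 17.9% lower).

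**Figure D1:**
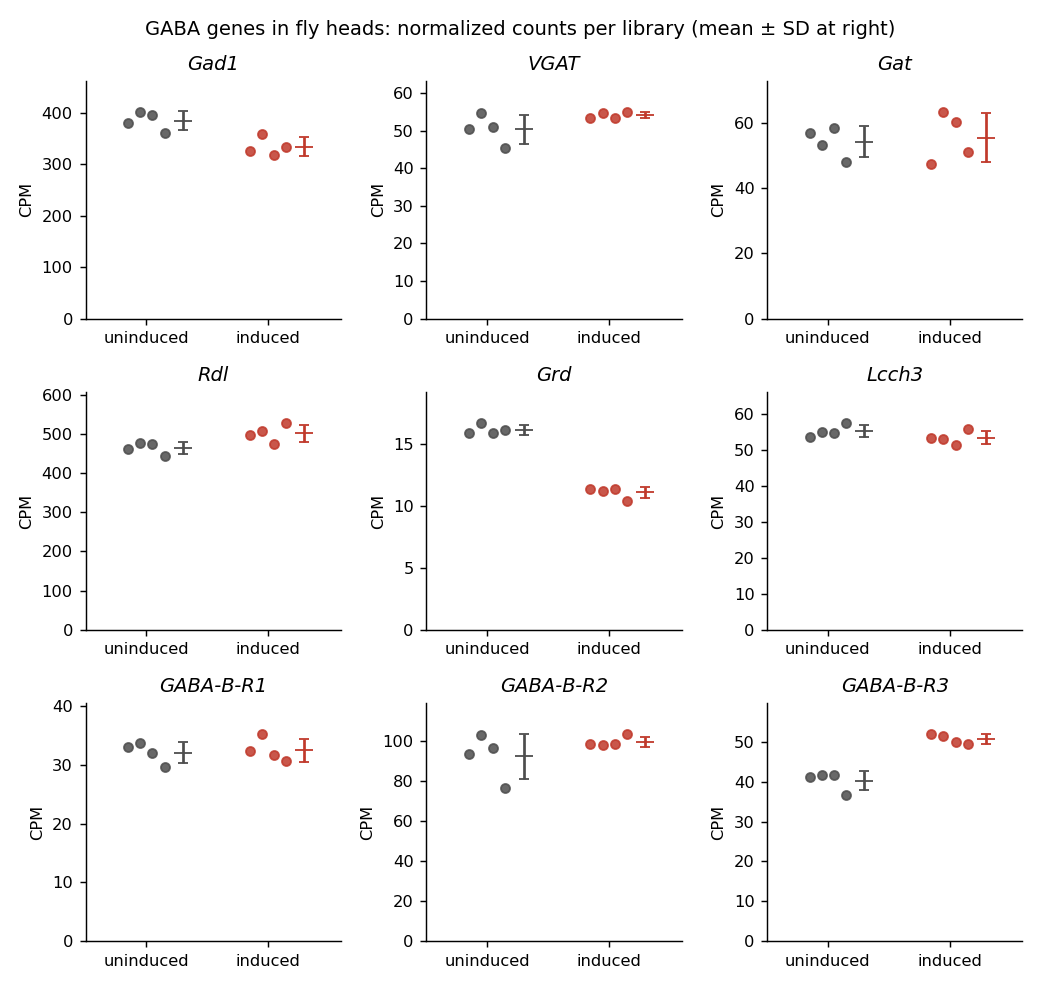
Normalized counts (CPM, vertical axes from 0) of the 9 GABA genes in each of the 4 uninduced (grey) and 4 induced (red) head libraries, with the mean ± SD of each group at its right. Induced libraries lie below all uninduced libraries for *Gad1* and *Grd* and above them for *GABA-B-R3*, and the groups overlap for the other 6 genes.

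*Gad1* encodes glutamate decarboxylase, the enzyme that makes GABA, and lies on chromosome 3L from 4074077 to 4088744 on the minus strand (dm6). In uninduced heads its level was 380.0, 401, 396 and 361 CPM in replicates 1 to 4. In induced heads it was 325, 359, 318 and 333 CPM. The groups were separate but close, since induced replicate 2 lay just below uninduced replicate 4. The mean went from 384 ± 18.2 to 334 ± 17.8 CPM (SD, n = 4), which is -0.20 on the log2 scale (standard error 0.05, adjusted p = 0.00689). The exact two-sided permutation test gave p = 0.0286, the smallest value that 4 libraries against 4 allow. The raw counts were nearly level, with 4635 to 5237 in the uninduced and 4772 to 5212 in the induced libraries, so the fall rests on the scaling of the libraries. With the libraries scaled to their totals only, the log2 fold change was -0.03 (adjusted p = 0.741). No other annotated gene shared exons with *Gad1*. Over the 8 libraries, the 3 genes whose centred log2 CPM lay nearest to that of *Gad1* were CG31221 (Euclidean distance 0.08), wry (0.10) and *Ggamma1* (0.10), among 9904 genes compared.

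*VGAT*, which fills synaptic vesicles with GABA, lies on chromosome 2R from 14198478 to 14201249. Its level was 50.5, 54.7, 51.0 and 45.4 CPM in uninduced and 53.3, 54.6, 53.4 and 54.9 CPM in induced heads. The groups overlapped, and uninduced replicate 4 was the lowest library. The log2 fold change was 0.10 (standard error 0.06, adjusted p = 0.178, exact permutation p = 0.114). *Gat*, the plasma membrane transporter that takes GABA up into glia, lies on chromosome 4 from 629691 to 635350. Its level was 57.0, 53.1, 58.5 and 47.9 CPM in uninduced and 47.3, 63.3, 60.4 and 51.0 CPM in induced heads. It varied most among the 9 genes within the induced group, with a coefficient of variation of 13.7%, and its libraries overlapped fully between the groups. The log2 fold change was 0.03 (standard error 0.09, adjusted p = 0.791). The precision of *Gat* is thus lower than that of *Gad1*, whose coefficient of variation was 4.74% in uninduced and 5.34% in induced heads.

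*Rdl*, on chromosome 3L from 9145838 to 9182149, encodes the main ionotropic GABA receptor subunit of insects, the target of the insecticide dieldrin. Its level was 461, 477, 473 and 443 CPM in uninduced and 497, 508, 475 and 528 CPM in induced heads. Only induced replicate 3 lay inside the uninduced range. The log2 fold change was 0.11 (standard error 0.05), which did not pass in edgeR (unadjusted p = 0.0317, adjusted p = 0.0775, exact permutation p = 0.0571). DESeq2, run as an alternative, gave the same log2 fold change and an adjusted p of 0.0482, so the call for *Rdl* depended on the test. DESeq2 called 28.9% of all genes (13.9% higher and 15% lower), and 2 of the 9 GABA genes higher and 2 lower.

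*Grd*, on chromosome 3L from 17823333 to 17839767, encodes a subunit that forms GABA-gated cation channels together with Lcch3 when both are expressed in frog oocytes. It was the least abundant of the 9 genes, with 201 to 218 counts in uninduced and 162 to 180 in induced libraries. Its level was 15.9, 16.7, 15.9 and 16.1 CPM in uninduced and 11.4, 11.2, 11.4 and 10.4 CPM in induced heads. The groups were apart by a wide margin relative to their spread, with all 4 induced libraries lower. The mean went from 16.1 ± 0.379 to 11.1 ± 0.466 CPM (SD, n = 4), or -0.54 on the log2 scale (standard error 0.07, adjusted p = 3.27e-05, exact permutation p = 0.0286). *Grd* shares 1118 bp, or 27.5% of its exon length, with exons of CG5577 on the opposite strand, and the strand setting of the counting is not given in the sources used here. CG5577 was more abundant than *Grd* and also lower in induced heads, at 53.5 ± 4.64 against 39.6 ± 3.49 CPM (log2 fold change -0.43, adjusted p = 3.52e-04). The part of CG5577 reads in the fall of *Grd* was not tested.

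*Lcch3*, on chromosome X from 15925105 to 15928529, encodes the other partner subunit. Its level was 53.6, 55.0, 54.7 and 57.4 CPM in uninduced and 53.3, 53.1, 51.3 and 55.7 CPM in induced heads. The groups overlapped, and the log2 fold change was -0.05 (standard error 0.05, adjusted p = 0.449). *Lcch3* shares 24.0% of its exon length with Ranbp16 and 7.36% with a noncoding RNA, both on the opposite strand. Neither passed the test, with a log2 fold change of -0.02 for Ranbp16 and 0.21 for the noncoding RNA (adjusted p = 0.784 and 0.276).

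*GABA-B-R1* and *GABA-B-R2* encode the partners that form the heterodimeric GABA-B receptor, and *GABA-B-R3* encodes a further, insect-specific member of the family. *GABA-B-R3*, on chromosome 2L from 749945 to 762399, was at 41.2, 41.6, 41.7 and 36.7 CPM in uninduced heads. In induced heads it was at 51.9, 51.6, 49.9 and 49.6 CPM. Every induced library was above every uninduced library, also above the 3 uninduced libraries that lay close together. The mean went from 40.3 ± 2.40 to 50.7 ± 1.18 CPM (SD, n = 4), or 0.33 on the log2 scale (standard error 0.05, adjusted p = 2.17e-04, exact permutation p = 0.0286). Without uninduced replicate 4, the lowest library, the log2 fold change was 0.30.

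*GABA-B-R1*, on chromosome 2L from 15016331 to 15034704, was at 33.0, 33.8, 32.0 and 29.6 CPM in uninduced and 32.4, 35.2, 31.6 and 30.7 CPM in induced heads. The values were interleaved, and the log2 fold change was 0.02 (standard error 0.06, adjusted p = 0.860). *GABA-B-R2*, on chromosome 3R from 21770333 to 21775840, was at 93.6, 103.3, 96.9 and 76.8 CPM in uninduced and 98.8, 98.0, 98.9 and 103.6 CPM in induced heads. The log2 fold change was 0.11 (standard error 0.07, adjusted p = 0.261), leaned on uninduced replicate 4 and was 0.04 without it.

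Uninduced replicate 4 was the lowest uninduced library for 7 of the 9 genes, all but *Grd* and *Lcch3*, where 33.7% of all tested genes were lowest in that library. The summed level of the 12 neuronal markers was also lowest there, at 4598 CPM against 4883 to 5143 CPM in the other uninduced libraries. With any one library left out, the same 3 genes passed the test in the same direction. Without uninduced replicate 4, the log2 fold change was -0.22 for *Gad1* (adjusted p = 0.0019) and -0.53 for *Grd*.

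Levels of different genes were compared per kilobase of exon (RPKM). In uninduced heads the order was *Gad1* at 104 ± 4.94 RPKM, *Rdl* at 51.5 ± 1.68, *Lcch3* at 29.0 ± 0.838, *GABA-B-R2* at 23.2 ± 2.84, *Gat* at 18.7 ± 1.64, *VGAT* at 18.7 ± 1.43, *GABA-B-R3* at 5.73 ± 0.340, *GABA-B-R1* at 5.69 ± 0.318 and *Grd* at 3.96 ± 0.0931 RPKM (SD, n = 4). *Gad1* thus stood 2.02 times above *Rdl*. *GABA-B-R2* and *Gat*, *Gat* and *VGAT*, and *GABA-B-R3* and *GABA-B-R1* overlapped between neighbours in this order, and the other neighbours were apart in every library. In induced heads *GABA-B-R3* (7.21 ± 0.167 RPKM) no longer overlapped *GABA-B-R1* (5.76 ± 0.346 RPKM). These lengths count every annotated exon once, so a gene whose long exons are little used is placed too low. *Grd* and *Lcch3* also share exons with opposite-strand genes, as given above. The part of this overlap in their levels and shares was not tested. Per length, *Rdl* made up 61.0 ± 1.27% of the 3 ionotropic subunits in uninduced and 64.5 ± 0.434% in induced heads, and *Grd* went from 4.69 ± 0.0805% to 3.15 ± 0.240%. Of the 3 GABA-B genes, *GABA-B-R3* made up 16.6 ± 0.787% in uninduced and 19.0 ± 0.497% in induced heads.

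Ratios of 2 genes within a library do not depend on how libraries are scaled, and 8 were compared. *Rdl* counts per *Gad1* count were 1.21, 1.19, 1.20 and 1.23 in uninduced and 1.53, 1.41, 1.49 and 1.58 in induced heads, a difference in the mean log2 ratio of 0.32. *VGAT* per *Gad1* was 0.133, 0.137, 0.129 and 0.126 in uninduced and 0.164, 0.152, 0.168 and 0.165 in induced heads, a difference of 0.31. Both ratios were higher in every induced library than in every uninduced library. *Grd* per *Rdl* was lower in every induced library (difference in the mean log2 ratio -0.66), as was *Lcch3* per *Rdl* (-0.16), for which uninduced replicate 4 stood at 0.130 and the other uninduced libraries at 0.115 to 0.116. *GABA-B-R3* per *GABA-B-R2* was higher (0.22), although uninduced replicate 4 (0.4782) and induced replicate 4 (0.4784) almost met, and it did not pass without uninduced replicate 2 or any 1 induced library (difference 0.18 to 0.25, adjusted p = 0.0653 to 0.0762). Each of these 5 ratios had an exact two-sided permutation p of 0.0286, which is the smallest possible, and an adjusted p of 0.0381 over the 8 ratios. All but *Lcch3* per *Rdl* hold *Gad1*, *Grd* or *GABA-B-R3*, so they partly restate the changes of those genes. How many of all gene pairs would pass was not computed. *Gat* per *Gad1* (difference 0.23, exact permutation p = 0.0857, adjusted p = 0.0979, and 0.0381 without induced replicate 1) and *GABA-B-R1* per *GABA-B-R2* (-0.10, exact permutation p = 0.257) did not pass.

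**Figure D2:**
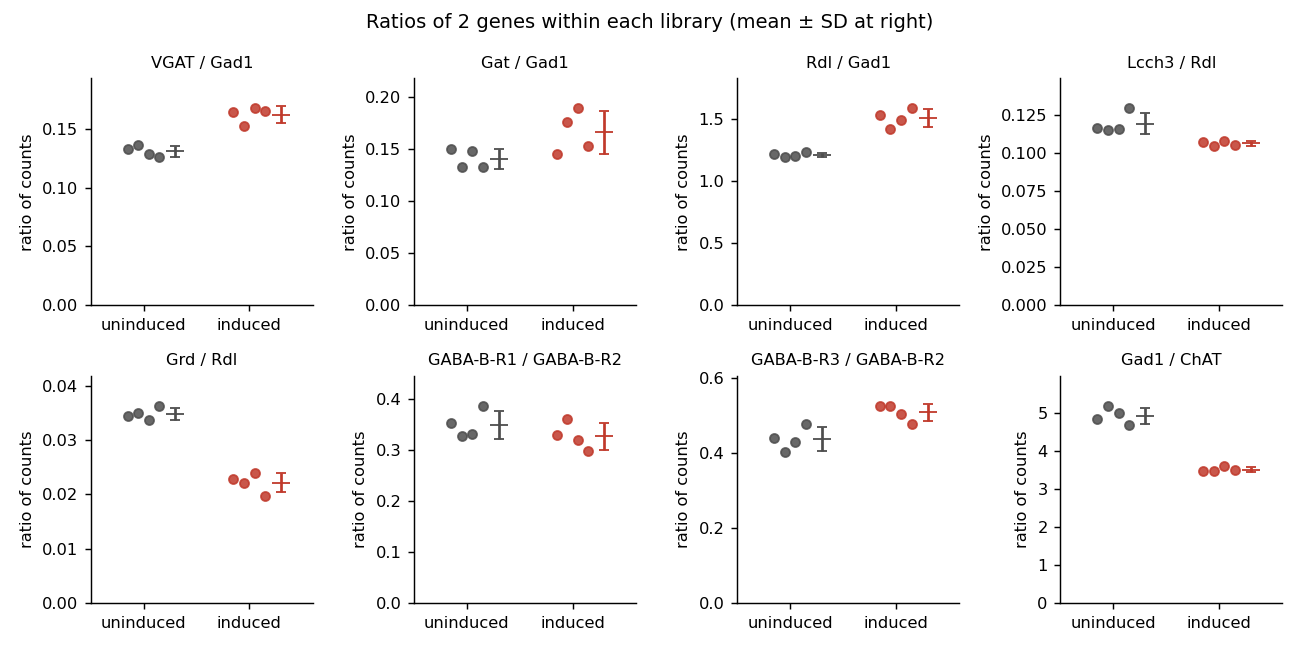
Ratio of the raw counts of 2 genes within each library (vertical axes from 0, no unit) for 4 uninduced (grey) and 4 induced (red) libraries, with the mean ± SD of each group at its right. In 6 of the 8 panels the groups do not overlap, and *Gat* / *Gad1* and *GABA-B-R1* / *GABA-B-R2* overlap. Of these 6, all but *Lcch3* / *Rdl* hold *Gad1*, *Grd* or *GABA-B-R3*, whose own groups did not overlap. The share of all gene pairs without overlap was not computed, and 36% of single tested genes did not overlap.

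The eighth ratio set the GABA synthesis gene against *ChAT*, the synthesis gene of acetylcholine, the main excitatory transmitter. *Gad1* counts per *ChAT* count were 4.83, 5.18, 4.98 and 4.67 in uninduced and 3.46, 3.46, 3.60 and 3.50 in induced heads. Every induced library was lower, with a difference in the mean log2 ratio of -0.49 (exact two-sided permutation p = 0.0286, adjusted p = 0.0381 over 8 ratios). The table lists *ChAT* as Cha, and it shares 15.1% of its exon length on the same strand with *VAChT*, the vesicular transporter gene nested in its locus. *ChAT* itself rose (log2 fold change 0.29, adjusted p = 4.87e-04) while *VAChT* fell (-0.14, adjusted p = 0.0243, and 0.0508 to 0.0883 when uninduced replicate 2 or 3 or induced replicate 1 or 3 was left out).

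Among 11 genes that mark other transmitters, 4 were higher and 5 lower at an adjusted p under 0.05, with a median log2 fold change of -0.14. Over all tested genes, 17.7% were higher and 18.8% lower. *VGlut*, the vesicular glutamate transporter gene, fell by 0.20 on the log2 scale (adjusted p = 0.00493), close to the value of *Gad1*. *Vmat*, which loads monoamines, fell by 0.31 (adjusted p = 2.19e-04) and *ple*, the tyrosine hydroxylase gene of dopamine synthesis, fell by 0.57 (adjusted p = 3.42e-06). *Tdc2*, which makes tyramine, the precursor of octopamine, rose by 1.23 from 78 to 99 counts in uninduced to 229 to 255 counts in induced libraries (adjusted p = 3.51e-07). *Gad1* was thus 1 of several transmitter synthesis and loading genes past the test, in both directions.

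GABA is broken down by *Gabat*, the GABA transaminase, and then *Ssadh*, succinic semialdehyde dehydrogenase. Both were lower in induced heads. *Gabat*, listed as CG7433, went from 206 ± 6.30 to 171 ± 5.89 CPM (SD, n = 4), a log2 fold change of -0.27 (adjusted p = 2.60e-04), and *Ssadh* from 116 ± 1.87 to 106 ± 0.709 CPM (-0.13, adjusted p = 0.0143, and 0.056 without uninduced replicate 1). Among the genes of glutamate supply described here, *Gs1*, a mitochondrial glutamine synthetase, fell from 309 ± 9.06 to 174 ± 4.16 CPM (-0.83, adjusted p = 4.41e-09). *Gdh*, which interconverts glutamate and α-ketoglutarate (0.15, adjusted p = 0.0598), and *Gs2*, the cytosolic glutamine synthetase of glia (-0.09, adjusted p = 0.167), did not pass. The same list also held *b*, which makes β-alanine from aspartate and did not pass (0.11, adjusted p = 0.175). *Gdh* was higher in every induced library and did pass in DESeq2 (adjusted p = 0.0488), with either other filter on low counts (0.0476 and 0.0444) and without uninduced replicate 3 (0.0254).

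**Figure D3:**
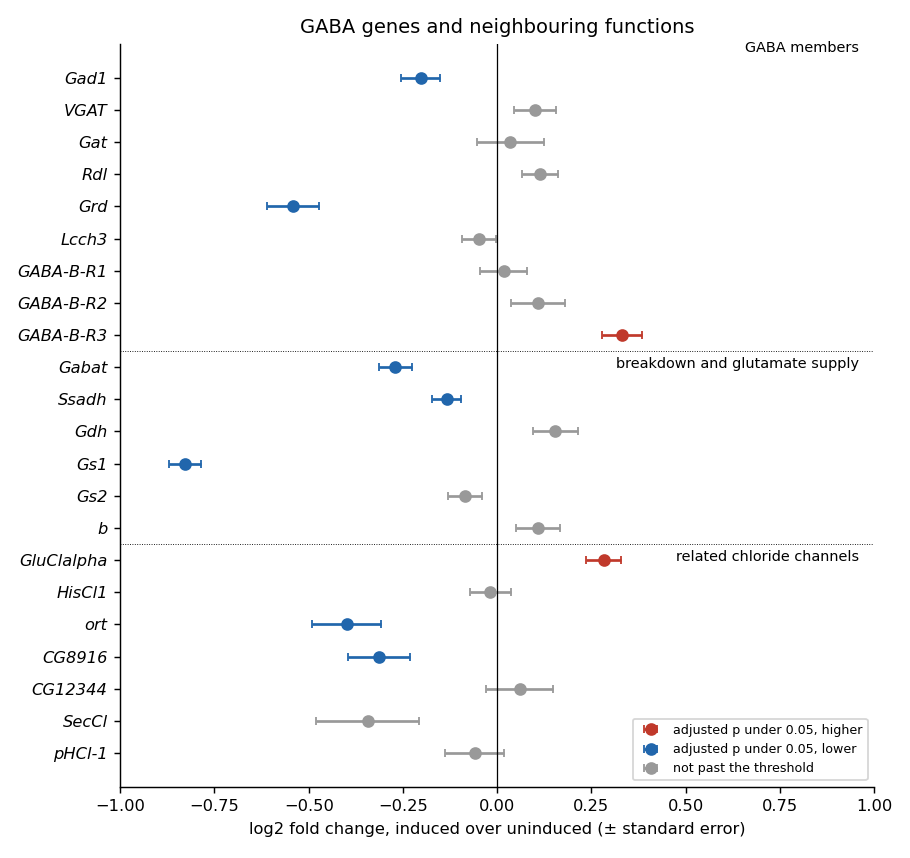
Log2 fold change, induced over uninduced (horizontal axis), with its standard error for the 9 GABA genes, 6 genes listed under GABA breakdown and glutamate supply and 7 tested subunits of related chloride channels. The list of 6 includes *b*, a gene of β-alanine synthesis. Red and blue points passed an adjusted p of 0.05 in edgeR and grey points did not, and *Gs1* (-0.83) and *Grd* (-0.54) lie farthest to the left.

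Subunits of related chloride channels were checked as the nearest relatives of the ionotropic receptors. Of 9, 7 had enough counts to test, and 1 was higher and 2 lower, where 17.7% of all tested genes were higher and 18.8% lower. *GluClalpha*, the glutamate-gated chloride channel gene, rose from 180.0 ± 7.45 to 219 ± 8.01 CPM (log2 fold change 0.28, adjusted p = 2.84e-04). CG8916, which encodes a receptor subunit related to those of GABA receptors and lies beside *Lcch3* on the same strand (15921955 to 15924558 on chromosome X), fell from 14.5 ± 0.868 to 11.7 ± 0.950 CPM (-0.31, adjusted p = 0.00806). *ort*, a histamine-gated channel gene of the visual system, fell by 0.40 on the log2 scale (adjusted p = 0.00336). *HisCl1*, CG12344, *SecCl* and *pHCl-1* did not pass. *SecCl* was at -0.34 (adjusted p = 0.063), and passed as lower with the replicate number as a block (0.0243), without uninduced replicate 2 (0.0443) and without induced replicate 4 (0.0172). CG6927 (0 to 5 counts per library) and *pHCl-2* (0 to 2) were too low to test.

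The direction of current through a GABA-gated chloride channel depends on chloride transport. *kcc*, the cotransporter gene whose product extrudes chloride, rose from 435 ± 20.3 to 502 ± 10.8 CPM (log2 fold change 0.21, adjusted p = 0.00317), and *fray*, a kinase gene that acts on these transporters, also rose (0.15, adjusted p = 0.0384). *Ncc69*, *NKCC* and *Wnk* did not pass (-0.13, 0.14 and 0.07), although *Ncc69* passed as lower without uninduced replicate 4 or induced replicate 3 (0.0345 and 0.0403) and *NKCC* as higher without induced replicate 2 (0.0472), so edgeR called 2 of 5 genes higher and 0 lower. At an unadjusted p under 0.05 there were 3 higher and 1 lower, and DESeq2 called 1 higher and 0 lower. Over all tested genes, edgeR called 17.7% higher and 18.8% lower, and DESeq2 13.9% and 15%. The call for *fray* was narrow, with an adjusted p of 0.0523 in DESeq2 and of 0.054 to 0.114 when uninduced replicate 2 or 4 or induced replicate 2, 3 or 4 was left out. Among 9 genes of G proteins and channels on which GABA-B receptors act, 1 was higher and 2 lower, where 17.7% of all tested genes were higher and 18.8% lower. *Ggamma1* (-0.19, adjusted p = 0.0065) and *Galphai* (-0.15, adjusted p = 0.0424) were lower, and *cac*, the presynaptic calcium channel gene, was higher (0.20, adjusted p = 0.00356). *Galphai* did not pass in DESeq2 (adjusted p = 0.108), nor with any library but uninduced replicate 2 or induced replicate 2 left out (0.0689 to 0.118).

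The genes are used in different cells, so markers of those cells are given beside them. Their calls stand against 17.7% higher and 18.8% lower among all tested genes. Of 12 neuronal markers, 5 were higher and 1 lower, with a median log2 fold change of 0.12, and their summed level was 4598 to 5143 CPM in uninduced and 5600 to 5963 CPM in induced heads. *futsch* (0.71) and *cpx* (0.51) had the largest values among them and together went from 1417 to 1629 CPM in uninduced to 2185 to 2350.0 CPM in induced heads, while the other 10 markers summed to 3180.0 to 3515 and 3415 to 3613 CPM, which overlapped. The neuronal marker *elav*, 27.9% of whose exon length overlaps a same-strand noncoding RNA, was at 0.19. *Snap25* was the lower marker (-0.15, adjusted p = 0.0222), but did not pass without uninduced replicate 2 or 3 or induced replicate 1 or 3 (0.0548 to 0.071). *Syn* (0.13, adjusted p = 0.0341) did not pass without uninduced replicate 1 or any 1 induced library (0.0536 to 0.0888). Of 9 glial markers, 3 were higher and 3 lower, with a median of 0.13, and their summed level was 982 to 1016 CPM in uninduced and 763 to 842 CPM in induced heads. *Eaat1*, the glial glutamate transporter gene, went from 450.4 ± 4.53 to 245 ± 8.75 CPM (-0.88, adjusted p = 2.95e-09), and the other 8 glial markers together overlapped between the groups (525.1 to 565.8 CPM in uninduced and 526.1 to 585.9 CPM in induced heads). The 3 lower glial markers were *Eaat1*, *moody* (-0.43) and *Mdr65* (-0.43), and they passed under all 17 alternatives described below. The 3 higher ones lay between 0.16 and 0.23, and DESeq2 called 2 higher. With the 12 neuronal markers as library size 0 glial markers were called higher by edgeR (0 also at an unadjusted p under 0.05). Without *cpx* and *futsch* among those markers 0 were called higher (1 at an unadjusted p under 0.05). *Gat*, the glial GABA transporter gene, was at 0.03. Of 7 tested fat body markers, edgeR called 0 higher (0 also at an unadjusted p under 0.05 and by DESeq2) and 6 lower, with a median of -0.46, and their summed level went from 105500 to 113700 CPM in uninduced to 70460 to 88950 CPM in induced heads. The part of these shifts in the values of the GABA genes was not tested.

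The scaling of the libraries set the direction for several of the 9 genes. With library totals only, the median log2 fold change of all genes was 0.18, 54.1% of genes were called (45.3% higher and 8.82% lower), and 6 GABA genes were higher and 1, *Grd*, lower. With the summed neuronal markers as the library size, the median of all genes was -0.24, 59.3% were called (5.6% higher and 53.7% lower), and edgeR called 0 GABA genes higher (0 also at an unadjusted p under 0.05) and 6 lower. *Grd* was lower under each of these scalings, with log2 fold changes of -0.36 and -0.78. *GABA-B-R3* was above 0 under each, at 0.51 and 0.10, but did not pass with the neuronal markers (adjusted p = 0.110). *Gad1* was below 0 under each, at -0.03 and -0.44. The last scaling rests largely on *cpx* and *futsch*. With the other 10 neuronal markers as library size, an alternative added after seeing the data, the median of all genes was -0.06 and 33.6% were called (11.5% higher and 22.1% lower). The calls of the 9 genes were then those of TMM scaling, with *Gad1* at -0.26, *Grd* at -0.60 and *GABA-B-R3* at 0.27, and *VGAT* (0.04), *Rdl* (0.05) and *GABA-B-R1* (-0.04) did not pass. A change of scaling shifts every gene nearly alike, so values relative to the median of all genes stay the same by construction and measure no stability. From that median, *Gad1* lay at -0.20, *Grd* at -0.54 and *GABA-B-R3* at 0.33 under TMM, library totals and the 12 neuronal markers alike. Of the other genes named above as changed, *Ssadh* (0.04), *VAChT* (0.04), *Galphai* (0.03) and *Snap25* (0.03) were above 0 with library totals only. With the 12 neuronal markers, *kcc* (-0.03), *fray* (-0.09), *cac* (-0.04), *elav* (-0.05) and *Syn* (-0.10) were below 0. *elav* and *Syn* are themselves among those 12 markers, so their values there partly follow from the scaling. With library totals only, *Gabat* (-0.09, adjusted p = 0.139), *ort* (-0.22, 0.0635), CG8916 (-0.14, 0.218), *VGlut* (-0.02, 0.787), *Vmat* (-0.13, 0.0721) and *Ggamma1* (-0.01, 0.874) no longer passed. With the 12 neuronal markers, *GluClalpha* (0.05, adjusted p = 0.391) and *ChAT* (0.05, 0.429) no longer passed.

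**Figure D4:**
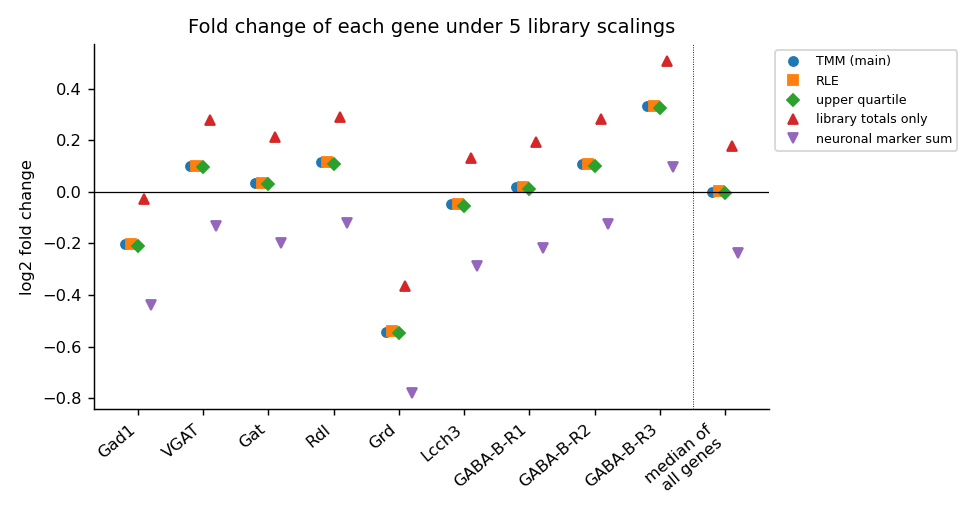
Log2 fold change, induced over uninduced (vertical axis), of the 9 GABA genes and of the median of all tested genes under 5 ways of scaling the libraries. All genes shift together, upward with library totals only (median of all genes 0.18) and downward with the summed neuronal markers (-0.24), and *Grd* is the lowest of the 9 under every scaling.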

How the data were processed

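The heads of 8 groups of 15 female flies were sequenced, 4 induced and 4 uninduced, and groups were taken from the sample titles. Alignment by the authors was to Dm6, and they deposited a raw count per gene and library, neither normalized nor pooled. How reads were counted (tool, annotation, strand) is not given in the sources used here. Deposited score columns hold the authors' counts divided by a size factor, group means and diagnostics of the DESeq2 fit. The deposited ratio (fold change), log2 fold change and p-value columns hold the authors' own DESeq2 comparison. None of these was used.

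The quasi-likelihood test of edgeR 4.0.16 (R 4.3.3) was run on raw counts after TMM scaling and filterByExpr, with Benjamini-Hochberg adjustment over all 9905 genes tested. A gene was called at an adjusted p below 0.05. Standard errors were calculated back from the F statistic and are approximate. Two-sided permutation tests were exact and compared log2(CPM + 0.1) or log2 ratios of counts. The test was tested on simulated data first, with 200 genes changed. It recovered 31.8% of the genes changed by 0.25 on the log2 scale, 84.6% at 0.5 and 95.5% at 1. A gene that did not pass may thus hold a change of the smallest size. Far fewer genes were changed there than were called in the data, so the shares recovered may differ. Gene positions and exon lengths were read from the Ensembl BDGP6 annotation (dm6 coordinates). Libraries held 13247282 to 14962813 counts, and *Grd* had the fewest counts of the 9 genes.

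The alternatives were DESeq2 1.42.0, RLE and upper quartile normalization, library totals only, the summed neuronal markers as library size (all 12 and, added after seeing the data, without *cpx* and *futsch*), a filter of 10 or more counts in each library and none at all, the replicate number as a block, and each library left out. The 9 genes and the 10 other gene lists, written by hand, were chosen with earlier results of these data known. Named are the 9 genes, *elav*, and in each other list genes that passed the test, up to 4 by size of change. In the breakdown, chloride channel and transmitter lists any tested gene could be named, and 1 gene of the breakdown list is not reported here. CG6927, *pHCl-2*, *Ncc69*, *NKCC*, *Wnk*, *Snap25*, *Syn* and the genes overlapping *Grd* and *Lcch3* were named outside that rule, after their values were seen. Over all tested genes, edgeR called 17.7% higher and 18.8% lower, and DESeq2 13.9% and 15%. Beside these shares, the muscle markers had 0 of 4 genes called by edgeR or DESeq2 (0 also at an unadjusted p under 0.05). Of the 9 photoreceptor markers, 3 were higher and 0 lower by both tools (0 lower also at an unadjusted p under 0.05). Without induced replicate 4 these 3 did not pass in edgeR (adjusted p = 0.0609 to 0.0762), nor with either set of neuronal markers as library size.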

Additional observations from a re-analysis of the deposited data

Results flagged for a closer look

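In 34 sets of 4 libraries (9 genes and 8 ratios, in each condition), 3 sets held 1 library that stood far apart, where chance gives about 1 in 20 sets, or 1.7. *GABA-B-R2* in induced replicate 4, at 103.6 CPM, lay above the other induced libraries at 98.0 to 98.9 CPM. *GABA-B-R3* in uninduced replicate 4, at 36.7 CPM, lay below the other uninduced libraries at 41.2 to 41.7 CPM, and without it the log2 fold change of *GABA-B-R3* was 0.30 in place of 0.33. The ratio of *Lcch3* to *Rdl* counts in uninduced replicate 4, at 0.130, lay above the other uninduced libraries at 0.115 to 0.116, and without it the difference in the mean log2 ratio was -0.12 in place of -0.16.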

How the results depend on the processing

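With library totals only, 4488 genes were higher and 874 lower, and of the GABA genes 6 were higher and 1 lower. *Gad1* moved to -0.026 and no longer passed, *VGAT* (0.28), *Rdl* (0.29), *GABA-B-R1* (0.19) and *GABA-B-R2* (0.28) passed, and *Lcch3* turned to 0.13 and passed. With the summed neuronal markers as library size, 555 genes were higher and 5315 lower, and of the GABA genes 0 were higher by edgeR (0 also at an unadjusted p under 0.05) and 6 lower. *VGAT* (-0.13), *Rdl* (-0.12) and *GABA-B-R1* (-0.22) turned and passed, *Gat* (-0.20) and *GABA-B-R2* (-0.12) turned without passing, *Lcch3* (-0.29) passed, and *GABA-B-R3* (0.10) no longer did. Without *cpx* and *futsch* among those markers, an alternative added after seeing the data, 1143 genes were higher and 2187 lower, the calls of the 9 genes were as reported, and *Gat* (-0.025) and *GABA-B-R1* (-0.044) turned without passing. By construction these scalings shift every gene alike. DESeq2 called 2 GABA genes higher, since *Rdl* (0.11) passed narrowly. With each library left out, *Gat* ranged from -0.034 to 0.10 and *GABA-B-R1* from -0.024 to 0.047, and neither passed.
All other calls of the 9 genes held under all 17 alternatives, and *Grd* passed in every one. The sample titles do not say whether same-numbered libraries were collected together. Correlations of their deviations ran from -0.065 to 0.025, and those of other pairs from -0.055 to 0.054. With the replicate number as a block 1671 genes were higher and 1788 lower. *Gad1* was then at -0.20, *Grd* at -0.54 and *GABA-B-R3* at 0.33, with no changed call among the 9 genes. The share of higher genes among those called was 48.4% in the reported fit, 83.7% with library totals and 9.46% with neuronal markers. With each library left out, the log2 ratio of *GABA-B-R3* to *GABA-B-R2* differed by 0.18 to 0.26 and did not pass in 5 of the 8 cases, and that of *Gat* to *Gad1* differed by 0.17 to 0.29 and passed in 1. The other 6 ratios kept their calls. With the ratios paired by number the smallest exact permutation p is 0.125, so none could pass. For the other gene lists, 281 of 340 counts of higher or lower genes stayed within 1.5 times. Depth limits *Grd* most, at 162 to 218 counts per library.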
